A study of Mus musculus with 2 samples.

Results

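Vascular smooth muscle cells (VSMCs), the contractile cells in the wall of arteries and veins, were examined in single-cell RNA sequencing of mouse mandibular first molars and the tissue around them at PN15.5 (PN is the postnatal day). A cell was counted as a VSMC when it held at least 2 unique molecular identifiers (UMIs, counted RNA molecules) of Myh11 and at least 10 of Acta2 plus Tagln. It also had to hold under 4 UMIs over 6 endothelial genes (Cdh5, Pecam1, Egfl7, Emcn, Kdr and Flt1), and Col1a1 could take at most 2% of its UMIs. These measured values chose the cells, so the levels of the rule genes are given as a description only. The rule found 264 VSMCs among 17780 kept cells, of 19015 deposited. Kept cells showed 200 genes or more, and mitochondrial genes took no more than 20% of their UMIs.

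Both groups were C57BL/6J mice injected intraperitoneally 4 times between PN3.5 and PN12.5 (on PN6.5 and again on PN9.5 in between), with clodronate liposomes at 40 μg/g (Lipo-Clo), which deplete macrophages, or with vehicle liposomes in equal volume (Lipo-PBS). Each treatment is 1 library, both labelled as the same batch, and the sources used here do not say how many mice went into a library or their sex, beyond that the study as a whole used both sexes. Dispase with Collagenase I released the cells, so the share of a cell type among the recovered cells also depends on how well its cells were released. With 1 library for each treatment no test between treatments was possible and no p-value is given. Intervals are at the 95% level and cover counting error only, with no replicate check on any difference.

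In the vessel wall, smooth muscle cells shorten when calcium and calmodulin activate myosin light chain kinase, and they relax when nitric oxide raises cyclic GMP. They also make the elastic fibres and part of the collagen of the wall. Pericytes are related mural cells that sit on capillaries within the basement membrane, and the vessel wall holds a gradation of cells between both types. Serum response factor and its partner myocardin drive much of the contractile gene programme.

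The Lipo-Clo library held 78 VSMCs with 236029 UMIs in all (lowest 1013, median 2260.5, highest 14830 per cell). The Lipo-PBS library held 186 VSMCs with 592385 UMIs (lowest 715, median 2546.5, highest 15646 per cell). The Lipo-PBS values are therefore the more precise ones. A gene with no UMI could still have been present at up to 12.7 CPM (counts scaled to 1000000 UMIs) in the Lipo-Clo VSMCs and 5.06 CPM in the Lipo-PBS VSMCs. Mitochondrially coded genes took 0.318% of VSMC UMIs in Lipo-Clo and 2.00% in Lipo-PBS. The same gap ran through the libraries, at 0.368% and 1.74% of the UMIs of all kept cells, and its part in the results below was not tested. The libraries shared 30 deposited cell barcodes, and none of these belonged to a VSMC.

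Within the VSMCs, Myh11 (smooth muscle myosin heavy chain) ranged from 2 to 18 UMIs per cell with a median of 4 in Lipo-Clo, and from 2 to 26 with a median of 5 in Lipo-PBS. Acta2 (smooth muscle actin) plus Tagln (transgelin, an actin-binding protein) ranged from 10 to 246 UMIs with a median of 51.5 in Lipo-Clo, and from 10 to 318 with a median of 53 in Lipo-PBS. The ranges of both libraries overlapped almost completely. At the lower limit for Myh11, 23 Lipo-Clo and 41 Lipo-PBS VSMCs held just 2 UMIs, while 22 and 40 cells that met every other limit held 1 and stayed outside. For Acta2 plus Tagln, 5 and 12 VSMCs held 10 to 12 UMIs, and 11 and 7 cells outside held 7 to 9. For Col1a1, 2 and 15 VSMCs held 1.5 to 2% of their UMIs, and 7 and 30 cells outside held over 2%. No Lipo-Clo cell and 13 Lipo-PBS cells were left out for their endothelial UMIs alone.

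The label was checked with smooth muscle markers outside the rule. Cnn1 (calponin, an actin-binding regulator of contraction) stood at 148 CPM in Lipo-Clo VSMCs and at 240 CPM in Lipo-PBS VSMCs, against 1.9 and 3.1 CPM in all other kept cells. Lmod1 (leiomodin, which nucleates actin filaments) stood at 106 and 177 CPM against 2.0 and 2.9 CPM. Smtn (smoothelin, found in contractile smooth muscle) stood at 153 and 206 CPM against 49.4 and 55.3 CPM. Markers of skeletal muscle added up to 4 and 23 UMIs over 14 genes, and of these 12 and 4 genes were at 0. For comparison, pericyte-rule cells were chosen that held at least 3 Rgs5 UMIs, at least 2 UMIs over Kcnj8, Abcc9, Higd1b, Ndufa4l2, Cox4i2 and Vtn, and fewer than 2 of Myh11. The smooth muscle markers fit the label, and many VSMCs also held pericyte genes, as described below.

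VSMCs made up 0.878% of the kept Lipo-Clo cells (78 of 8886, exact Clopper-Pearson interval 0.694 to 1.09%) and 2.09% of the Lipo-PBS cells (186 of 8894, 1.80 to 2.41%). The share was 2.38-fold lower in Lipo-Clo, a log2 ratio of −1.25 (−1.65 to −0.86). Other cells of the vessel wall were also less frequent. Pericyte-rule cells made up 3.58% against 4.82% (log2 ratio −0.43), and cells with 4 or more endothelial UMIs made up 5.28% against 8.19% (−0.63). Cells with over 2% of their UMIs on Col1a1, here called mesenchyme-rule cells, made up 33.3% against 34.2% (−0.04). Of VSMCs and pericyte-rule cells together, VSMCs were 19.7% (15.9 to 24.0%) under Lipo-Clo against 30.2% (26.6 to 34.0%) under Lipo-PBS.

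**Figure D1:**
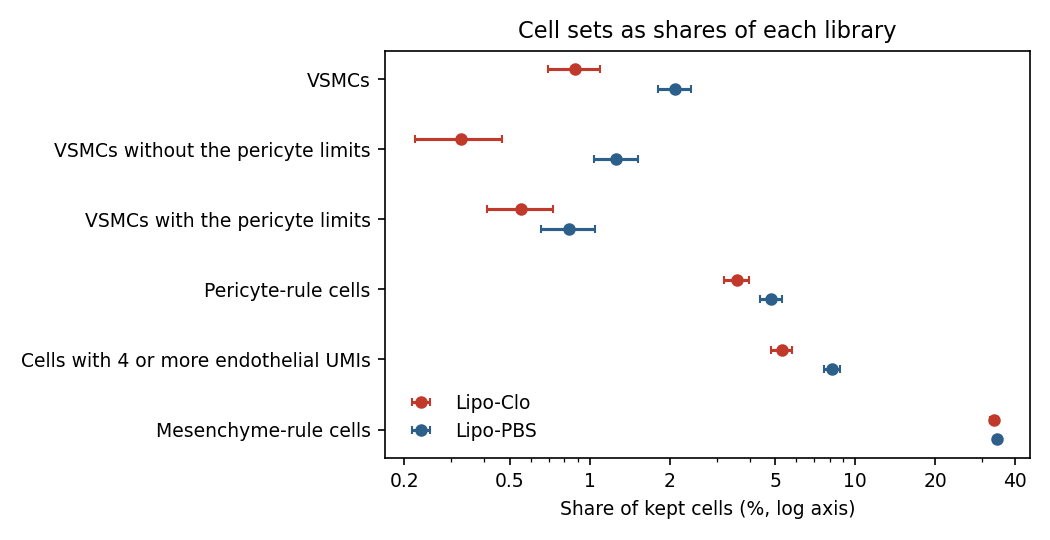
Share of the kept cells of each library (%, log axis) for 6 sets of cells, with red points for Lipo-Clo, blue points for Lipo-PBS and bars for exact Clopper-Pearson intervals, which cover counting error only. VSMCs without the pericyte limits show the widest gap, at 0.326% against 1.26%, and mesenchyme-rule cells the narrowest, at 33.3% against 34.2%.

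The pericyte limits on Rgs5 and the 6 other genes were then applied within the VSMCs, a split chosen after their values had been seen. In Lipo-Clo 49 of the 78 VSMCs met them (62.8%, 51.1 to 73.5%), and in Lipo-PBS 74 of the 186 did (39.8%, 32.7 to 47.2%). VSMCs that met them were 0.551% of the kept Lipo-Clo cells against 0.832% for Lipo-PBS, a log2 ratio of −0.59 (−1.14 to −0.05). VSMCs that did not meet them numbered 29 and 112, or 0.326% and 1.26% of kept cells, a log2 ratio of −1.95 (−2.59 to −1.35). Both kinds were less frequent in Lipo-Clo, and the Lipo-Clo VSMCs held more of the kind with pericyte genes. The cells without the limits had the higher median of Myh11, at 8 UMIs in Lipo-Clo and 7 in Lipo-PBS, against 3 in both libraries for the cells with them.

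**Figure D2:**
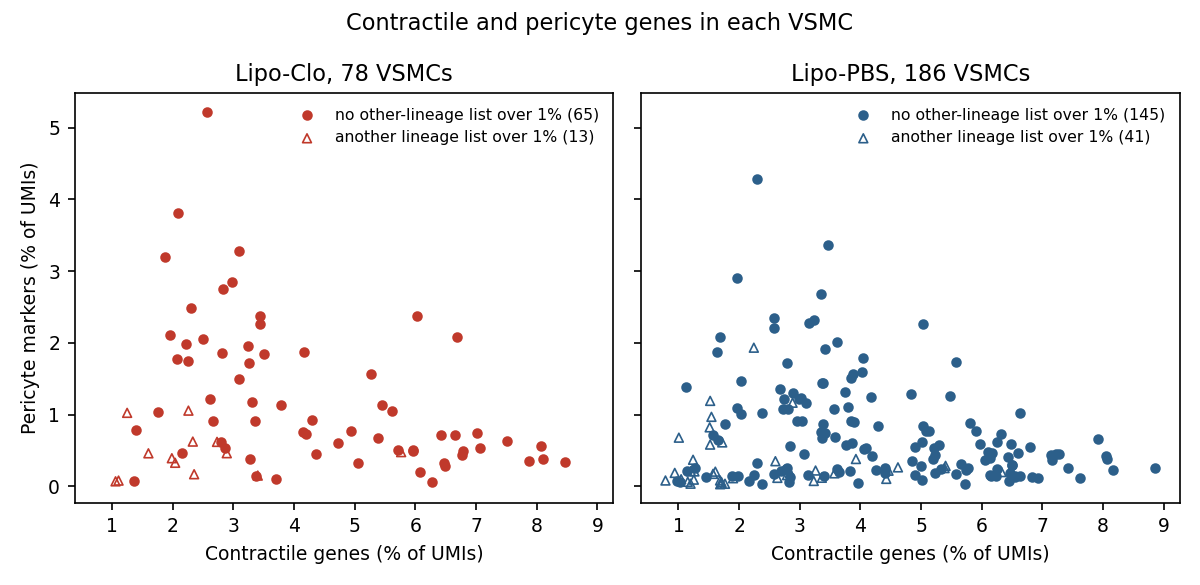
Each point is 1 VSMC, placed by the percent of its UMIs on contractile genes (x axis) and on pericyte markers (y axis), with 78 Lipo-Clo cells on the left and 186 Lipo-PBS cells on the right. Open triangles are the 13 and 41 cells with over 1% of UMIs on a list of blood, macrophage, glia, skeletal muscle, enamel or bone markers, and most cells of both libraries with the highest contractile share lie low on the pericyte axis.

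For the comparison of genes, UMIs were summed over the VSMCs of a library, and 2701 genes with at least 50 UMIs over both libraries were used. Of these, 261 (9.66%) were at least 1.5-fold higher in Lipo-Clo and 437 (16.2%) at least 1.5-fold lower, counted by size alone, and the median log2 ratio was 0.006. A gene list is read against these shares. In 38 of the 261 and 19 of the 437 genes, 1 cell held at least 25% of the UMIs.

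The contractile apparatus differed little in sum. Its 36 genes took 34335 CPM of the Lipo-Clo VSMCs against 33824 CPM of the Lipo-PBS VSMCs, a log2 ratio of 0.02 (−0.02 to 0.06). None of the 35 genes used was 1.5-fold higher and 5 were 1.5-fold lower, with a median of −0.16. Per cell, the list took a median of 3.38% of UMIs in Lipo-Clo and 3.59% in Lipo-PBS. Myl9, the regulatory light chain that myosin light chain kinase phosphorylates, had 1073 UMIs (4546 CPM) in Lipo-Clo against 2224 UMIs (3754 CPM) in Lipo-PBS, with a log2 ratio of 0.28 (0.17 to 0.38). Tpm1 (tropomyosin, which lies along actin filaments) had 604 UMIs (2559 CPM) and 2144 UMIs (3619 CPM), a ratio of −0.50 (−0.63 to −0.37). The light chain and tropomyosin thus stood on opposite sides, each within 1.5-fold. The 5 genes past 1.5-fold lower were Lmod1 (25 and 105 UMIs, −0.74), Cnn1 (35 and 142, −0.69), Synpo2 (44 and 177, −0.68), Actn4 (42 and 165, −0.65) and Actg2 (61 and 232, −0.60). Synpo2 and Actn4 encode actin-bundling proteins, and Actg2 is a second smooth muscle actin. In VSMCs with the pericyte limits, Lmod1 stood at −0.20, Cnn1 at 0.01, Synpo2 at 0.03, Actn4 at −0.34 and Actg2 at −0.12. All these intervals included 0. Without the limits the same genes stood at −0.80, −0.44, −0.70, −1.04 and −0.88, and the intervals of Lmod1 and Cnn1 included 0.

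RefSeq promoters (250 bases before to 50 after each gene's start, build GRCm38.p6) were searched on both strands for the CArG box, the A/T-rich element that serum response factor binds. Of the 39 contractile and rule genes 33 were in the table, and 3 of these (9.09%) held a box, against 488 of 27025 genes (1.81%). The stretches of 30 bases around the boxes of the 3 genes are shown, 5′ to 3′ on the gene's strand with the box in capitals, because they mark the contractile genes whose window holds the element.
Myl9: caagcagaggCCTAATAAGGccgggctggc
Myl6: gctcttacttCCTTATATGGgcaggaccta
Vcl: cccactatgcCCTTATAAGGagcgccccgc
They lie at chr2:156775293-156775322 (plus strand) for Myl9, chr10:128493040-128493069 (minus strand) for Myl6 and chr14:20929161-20929190 (plus strand) for Vcl. The boxes begin 161, 50 and 227 bases before the start of their genes. The genes with these boxes did not share a direction. Myl6, the essential myosin light chain, had 1721 and 3840 UMIs with a log2 ratio of 0.17 (0.09 to 0.25). Vcl (vinculin, which ties actin to adhesions) had 81 and 281 UMIs with a ratio of −0.47 (−0.84 to −0.11). None of the 7 pericyte markers, 24 interstitial matrix genes and 13 elastic fibre genes in the table held a box, which says only that these letters were not in the windows.

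Among regulators of smooth muscle genes, 7 of 20 were used, with 0 past 1.5-fold higher and 3 lower. Wwtr1, a coactivator of the Hippo pathway, had 17 UMIs in Lipo-Clo and 98 in Lipo-PBS (log2 ratio −1.20, −2.04 to −0.45). Klf4, known to repress contractile genes, had 17 and 83 UMIs (−0.96, −1.81 to −0.20). Tead1, the DNA-binding partner of Wwtr1, had 15 and 58 UMIs (−0.62), with an interval that included 0. Myocd, which encodes myocardin, had 14 and 41 UMIs (−0.22, −1.21 to 0.68), too few to place on either side. The median of the list was −0.23 in VSMCs, −0.16 in pericyte-rule cells and −0.49 in all other kept cells. In cells with over 5% of their UMIs on neutrophil markers, Wwtr1 stood at −0.94 and Klf4 at −1.44, so neither lower ratio was particular to VSMCs.

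Genes for vessel tone and calcium handling did not share a direction. Of 15 vasoactive receptor and signalling genes used, 4 were past 1.5-fold lower and 2 higher, and the list summed to 8270 CPM for Lipo-Clo against 6994 CPM for Lipo-PBS (log2 ratio 0.24, 0.16 to 0.32), led by the pericyte marker Rgs5. The median of the list lay on the other side, at −0.15, with 9 genes below 0 and 6 above. Gucy1a1, a subunit of the guanylate cyclase that senses nitric oxide, had 66 UMIs (280 CPM) under Lipo-Clo against 286 (483 CPM) under Lipo-PBS, a log2 ratio of −0.79 (−1.20 to −0.40). Prkg1, the protein kinase that cyclic GMP activates, had 126 and 517 UMIs and a ratio of −0.71 (−1.002 to −0.43). Gucy1b1, the partner subunit, had 39 and 136 UMIs and a ratio of −0.47 (−1.03 to 0.05). Ednra, the endothelin receptor of smooth muscle, had 50 and 124 UMIs and a ratio of 0.02. Prkg1 and Gucy1a1 were also lower in the other kept cells, at −0.81 and −0.89. After cells were thinned to 1000 UMIs, with 4 shallower Lipo-PBS VSMCs left out, 26.9% of Lipo-Clo and 42.9% of Lipo-PBS VSMCs held a Gucy1a1 UMI, against 51.3% and 68.3% unthinned. In neutrophil-marker cells, which should lack the gene, the thinned shares were 1.01% and 0%. These cells, chosen as a background after the data had been seen, had over 5% of their UMIs on neutrophil markers, and their median depths were 3063 and 2093 UMIs, with 48 and 35 of them left out of the thinning as shallower. Of 15 calcium and ion channel genes used, 3 were past 1.5-fold lower and 0 higher, and their list summed to 4699 and 4963 CPM (−0.08, −0.18 to 0.02). Slc8a1, the sodium-calcium exchanger, had 30 and 159 UMIs (−1.08, −1.69 to −0.51), and its ratio was −1.78 in pericyte-rule cells. Kcnab1, a potassium channel subunit, had 50 and 199 UMIs (−0.67, −1.14 to −0.21). The third was Kcnma1, a calcium-activated potassium channel (−0.66), with an interval that reached 0.03. Atp2a2, the calcium pump of the sarcoplasmic reticulum, had 135 and 331 UMIs (0.03, −0.27 to 0.33).

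Pericyte markers were higher in the Lipo-Clo VSMCs. Of the 9 of 12 genes used, 6 were past 1.5-fold higher and 0 lower, with a median of 0.62, and the list summed to 8796 CPM (Lipo-Clo) against 5377 CPM (Lipo-PBS). Rgs5, a brake on G protein signalling and the most abundant gene of the list, ranged from 0 to 74 UMIs per cell with a median of 6.5 in Lipo-Clo, and from 0 to 73 with a median of 2.5 in Lipo-PBS. Summed, it had 1168 and 1736 UMIs, a log2 ratio of 0.76 (0.65 to 0.86). Ndufa4l2, a mitochondrial protein of pericytes, had 222 and 255 UMIs (1.13, 0.86 to 1.39). Cox4i2, a subunit of cytochrome oxidase, had 113 and 132 UMIs (1.10, 0.73 to 1.48). Higd1b had 54 and 71 UMIs (0.93, 0.39 to 1.46), and Pdgfrb, the receptor through which endothelium recruits mural cells, had 82 and 134 UMIs (0.62, 0.20 to 1.03). The sixth was Cspg4 (NG2, a proteoglycan of mural cells) at 0.61, with an interval that reached −0.03. In pericyte-rule cells the list went the same way, with a median of 0.25 and a sum of 13025 CPM against 11332 CPM. The median was −0.46 in all other kept cells. These include the pericyte-rule cells, whose share was lower in Lipo-Clo, so that median does not separate level per cell from number of pericytes. After thinning, 62.8% of Lipo-Clo and 28.6% of Lipo-PBS VSMCs held an Ndufa4l2 UMI (82.1% and 55.9% unthinned), against 1.52% and 3.23% of neutrophil-marker cells. Notch3, the Notch receptor of mural cells, had 166 and 303 UMIs (0.46, 0.18 to 0.74). It was the only one of 9 Notch pathway genes used with an interval clear of 0, and the other kept cells stood at −0.50. Jag1, a Notch ligand, had 54 and 100 UMIs (0.44, −0.07 to 0.93).

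The split bears on these ratios, because pericyte genes chose both kinds of VSMC. Ndufa4l2 stood at 0.78 (0.48 to 1.08) in VSMCs with the pericyte limits and at 1.06 (0.44 to 1.66) in those without. Rgs5 stood at 0.40 (0.28 to 0.51) with the limits and at −0.49 (−0.97 to −0.03) without. Cox4i2 stood at 1.08 with and −0.43 without, and Higd1b at 0.51 and −0.66, with few UMIs of both genes in the cells without (9 and 46 for Cox4i2, 1 and 6 for Higd1b). The list summed to a ratio of 0.43 (0.35 to 0.52) with the limits and 0.27 (0.06 to 0.46) without. Summed contractile genes stood at 0.22 (0.16 to 0.27) with the limits and at 0.00 (−0.06 to 0.05) without. Of the 88510 UMIs of the 29 Lipo-Clo cells without the limits, single cells held 12686 and 11357. These cells had 1.36% and 1.06% of their UMIs on contractile genes and 0.134% and 0.185% on interstitial matrix genes. Their part in the sums without the limits, here and below, was not tested.

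**Figure D3:**
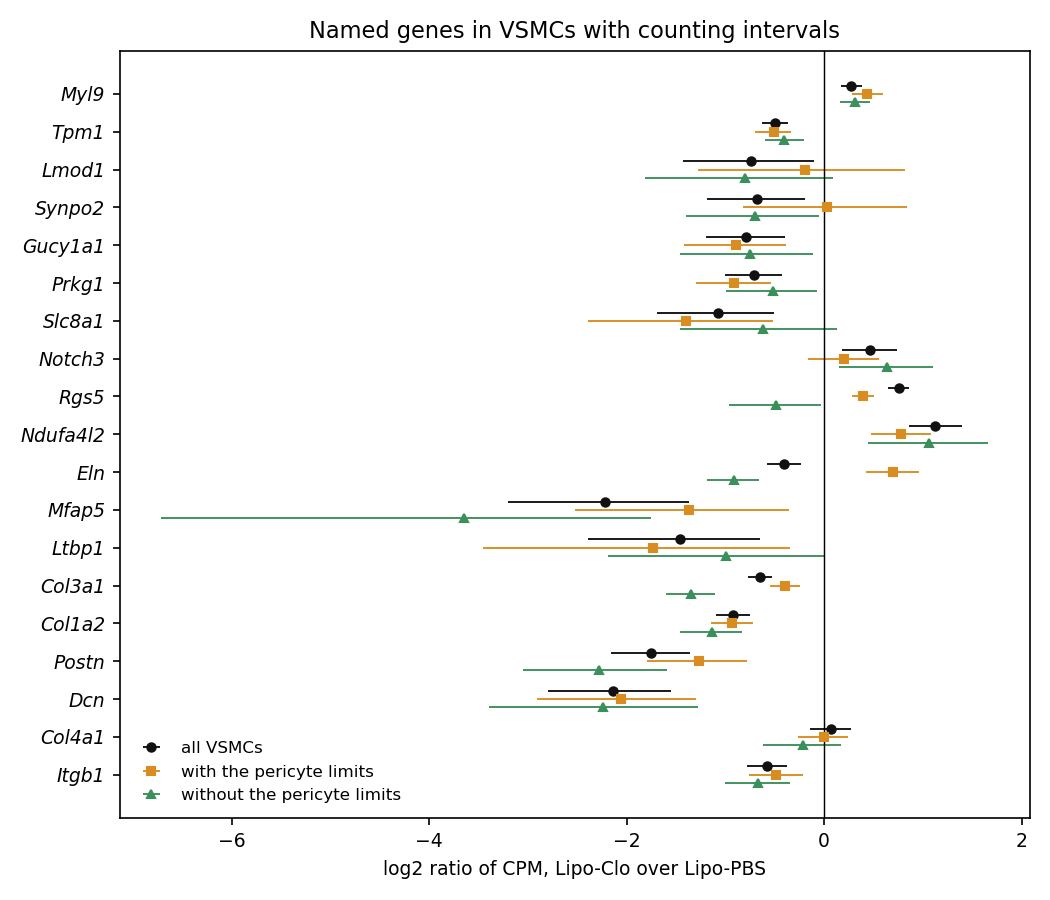
log2 ratio of CPM, Lipo-Clo over Lipo-PBS, of 19 genes in all VSMCs (black) and in those with (orange) and without (green) the pericyte limits, with exact intervals as bars that cover counting error only. Rgs5 and Ndufa4l2 took part in choosing the orange and green cells, and Eln stands at 0.69 in the orange and −0.92 in the green cells.

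Elastic fibre genes were lower in the sum over all VSMCs. All 11 of the 19 genes used had a ratio below 0, 6 of them past 1.5-fold, and the sum was 2504 CPM for Lipo-Clo VSMCs against 3709 CPM for Lipo-PBS VSMCs (log2 ratio −0.57, −0.70 to −0.43). In VSMCs without the pericyte limits the sum had a ratio of −0.90 (−1.11 to −0.70), and in those with them 0.05 (−0.14 to 0.23). Fibroblast and mesenchyme markers were lower in both kinds, at −1.35 (−1.48 to −1.21) without the limits and −0.62 (−0.71 to −0.53) with them. Interstitial matrix genes stood at −0.71 without and −0.37 with them. In neutrophil-marker cells the elastic fibre list summed to 655 and 1277 CPM, a ratio of −0.96. Eln (elastin), the most abundant gene of the list, had 363 UMIs (1538 CPM) in 55 Lipo-Clo cells and 1205 UMIs (2034 CPM) in 145 Lipo-PBS cells, a ratio of −0.40 (−0.58 to −0.23). The Eln ratio was −0.11 after thinning and −0.25 when each cell counted equally, and lay between −0.63 and −0.10 over 16 alternatives. Its levels in neutrophil-marker cells were 105 and 353 CPM, well below those of VSMCs. In VSMCs without the pericyte limits Eln had 134 and 958 UMIs, a ratio of −0.92 (−1.19 to −0.66). In VSMCs with them it had 229 and 247 UMIs, a ratio of 0.69 (0.43 to 0.96). The difference between these kinds of VSMC was not tested, nor was the part in it of the fibroblast markers given above. Ltbp1, which binds latent TGF-β to the matrix, had 14 and 97 UMIs (−1.46, −2.39 to −0.65). Mfap5 and Mfap4, proteins of the elastic microfibril and its surroundings, had 12 and 140 UMIs (−2.22) and 7 and 46 UMIs (−1.39), with 23 of the 140 Mfap5 UMIs in 1 cell. After thinning, 2.56% and 9.89% of VSMCs held an Mfap5 UMI, against 2.70% and 7.53% of neutrophil-marker cells. By CPM, Mfap5 stood at 50.8 and 236 in VSMCs, against 48.2 and 82.9 in neutrophil-marker cells. The Lipo-PBS level was thus above that background by CPM, and 82 of the Mfap5 UMIs lay in a subgroup of 24 cells described below. That subgroup held 4 Lipo-Clo and 20 Lipo-PBS cells, with 0.780% of UMIs on elastic fibre genes and 2.70% on fibroblast markers. Mfap4 stood at 29.7 and 77.7 CPM, below its 50.3 and 86.1 CPM in neutrophil-marker cells, and nothing is read from its ratio. The list was also lower in pericyte-rule cells (median −0.72) and in all other kept cells (−0.44), against −0.63 in VSMCs.

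Basement membrane genes, which encode the sheath around each mural cell, shifted less. Of 15 used, 1 was past 1.5-fold higher and 1 lower, with a median of 0.01. The sum was 6842 and 7417 CPM, a log2 ratio of −0.12 (−0.20 to −0.03), with −0.32 (−0.46 to −0.18) in VSMCs without the pericyte limits and −0.04 (−0.15 to 0.07) in those with them. Sparc, a matrix glycoprotein and the most abundant gene of the list, had 666 and 2023 UMIs (−0.28, −0.40 to −0.15). Col4a1, the main collagen of the sheath, had 272 and 651 UMIs (0.07, −0.14 to 0.27), and Col4a2 had 126 and 303 (0.06). Col18a1, the collagen from which endostatin is cut, had 62 and 101 UMIs (0.62, 0.14 to 1.09). Npnt (nephronectin) had 7 and 49 UMIs (−1.48, −2.87 to −0.33), but its ratio was 0.085 after thinning.

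Interstitial matrix genes were lower in number and sum, but for several the VSMC level was close to, or below, that in cells that should lack them. Of 32 of 34 genes used, 17 were past 1.5-fold lower and 1 higher, and the sum was 16193 CPM for Lipo-Clo against 22403 CPM for Lipo-PBS (log2 ratio −0.47, −0.52 to −0.42). Per cell the gap was smaller, with a median of 1.67% of UMIs in Lipo-Clo (quartiles 1.18 and 2.28%) and 1.77% in Lipo-PBS (1.32 and 2.53%). The same list summed to 7711 and 12915 CPM in neutrophil-marker cells, a ratio of −0.74. Col1a1 took part in the rule, and its limit holds down genes that go with it. Col3a1 (a fibrillar collagen of vessel walls) had 652 UMIs (2762 CPM) and 2568 UMIs (4335 CPM), a ratio of −0.65 (−0.78 to −0.53), against 2100 and 2816 CPM in neutrophil-marker cells. Col1a2 had 340 UMIs (1440 CPM) and 1613 UMIs (2723 CPM), against 2109 and 3400 CPM, so its level in VSMCs lay below that of the neutrophil-marker cells in both libraries. Postn (periostin, made by periodontal fibroblasts) had 60 UMIs (254 CPM) and 507 UMIs (856 CPM), against 333 and 647 CPM. Dcn (decorin) had 25 UMIs (106 CPM) and 277 UMIs (468 CPM), against 132 and 393 CPM. After thinning, 15.4% and 29.1% of VSMCs held a Postn UMI, against 13.5% and 26.3% of neutrophil-marker cells. For Dcn the shares were 11.5% and 17.6%, against 8.26% and 17.7%. By CPM both genes stood below the neutrophil-marker level in Lipo-Clo and above it in Lipo-PBS, whereas the thinned shares were level or somewhat above it in both libraries. The part of free RNA and of fibroblast RNA in single cells was not tested, and no change of expression in VSMCs is read from the ratios of Col1a2, Postn and Dcn.

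Mgp (matrix Gla protein, an inhibitor of vessel calcification) was the 1 interstitial gene past 1.5-fold higher, with 176 UMIs in 26 Lipo-Clo cells and 275 UMIs in 54 Lipo-PBS cells (0.68, 0.40 to 0.96). VSMCs with the pericyte limits held 172 and 211 of these UMIs (0.51), and the others 4 and 64 (−2.08). The level in the others was 45.2 and 191 CPM, below the 62.4 and 255 CPM of neutrophil-marker cells, where the ratio was −2.03. With the limits it was 1166 and 820 CPM, well above them. When at least 4 Myh11 UMIs were asked for, the Mgp ratio was −0.20. Igfbp7, a secreted protein abundant in vessels, had 952 and 2214 UMIs (0.11), with an interval that reached 0.

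**Figure D4:**
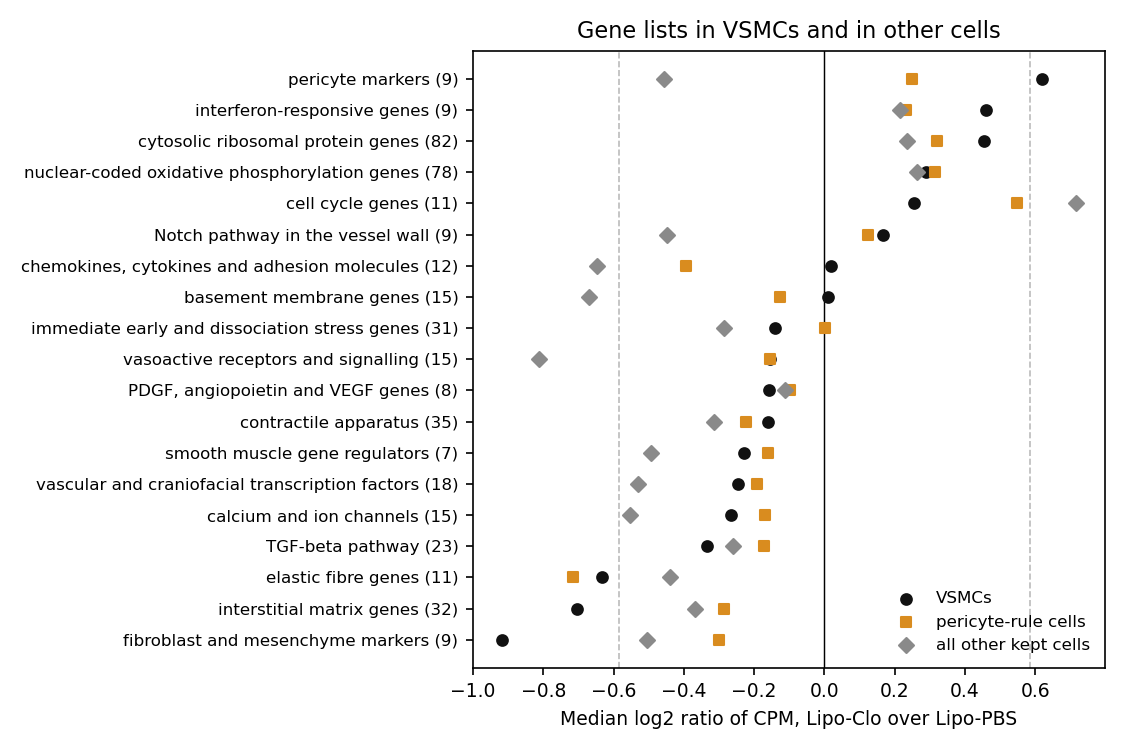
Median log2 ratio of CPM, Lipo-Clo over Lipo-PBS, of 19 gene lists (number of genes used in brackets) in VSMCs (circles), pericyte-rule cells (squares) and all other kept cells (diamonds), with dashed lines at 1.5-fold. Pericyte markers stand at 0.62 in VSMCs and −0.46 in other kept cells, elastic fibre genes lie below 0 in all 3, and no interval is drawn.

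Of 23 TGF-β pathway genes used, 6 were past 1.5-fold lower and 1 higher, with a median of −0.34. Itgb1, the integrin chain through which smooth muscle holds its matrix, had 250 and 936 UMIs, a log2 ratio of −0.58 (−0.78 to −0.37), and was also lower in all other kept cells (−0.84). Tgfbr2, the receptor that binds TGF-β, had 10 and 53 UMIs (−1.08, −2.22 to −0.09). Smad4, the shared signal transducer, had 7 and 61 UMIs (−1.80, −3.17 to −0.67). Id3, a common target of this signalling and the most abundant gene of the list, had 396 and 1099 UMIs (−0.14, −0.31 to 0.02). Itgb5, an integrin chain that can activate latent TGF-β, had 40 and 60 UMIs (0.74, 0.13 to 1.34). Of the 23 genes 18 had a ratio below 0, and the list summed to 5271 CPM for Lipo-Clo against 6638 CPM for Lipo-PBS (−0.33, −0.43 to −0.24). In neutrophil-marker cells the list sum had a ratio of −0.64. There Tgfbr2 stood at 31.4 and 63.4 CPM (−1.01) and Smad4 at 26.6 and 61.8 CPM (−1.21).

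Among 12 chemokine, cytokine and adhesion genes used, 4 were past 1.5-fold lower and 2 higher. Their median log2 ratio was 0.02, and the list sum had a ratio of 0.17 (0.03 to 0.31). Il6 (interleukin 6) had 6 UMIs in 4 Lipo-Clo cells and 57 UMIs in 26 Lipo-PBS cells (−1.92, −3.43 to −0.71). Cxcl1, a neutrophil attractant, had 6 UMIs in 6 cells and 61 UMIs in 29 cells (−2.02, −3.52 to −0.81). Ccl2, a monocyte attractant, had 35 UMIs in 8 cells and 180 UMIs in 17 cells (−1.03), but 51 of the 180 lay in 1 cell and the ratio was 1.05 without the 13 and 41 cells with over 1% of UMIs on a blood, macrophage, glia, skeletal muscle, enamel or bone list. Cxcl2 stood higher, with 155 and 65 UMIs (2.58, 2.15 to 3.02), but 87 of the 155 lay in 1 cell. Without the same 13 and 41 cells its ratio was −1.02. Il6 and Cxcl1 were also lower in all other kept cells, at −0.98 and −1.23. Of 31 immediate early and dissociation stress genes used, which respond within minutes and also during enzymatic digestion, 5 were past 1.5-fold lower and 2 higher. Their sum had a log2 ratio of −0.17 (−0.23 to −0.11), with 0.14 (0.05 to 0.22) in VSMCs without the pericyte limits and −0.30 (−0.39 to −0.21) in those with them. Jun had 134 and 565 UMIs (−0.75, −1.03 to −0.47), and Atf3 had 118 and 533 (−0.85, −1.15 to −0.56). Fos had 312 and 994 (−0.34, −0.53 to −0.16). Hspb1, a small heat shock protein abundant in muscle, had 90 and 133 (0.76, 0.36 to 1.16). Whether digestion took part in the lower Il6, Cxcl1 and Ccl2 counts was not tested.

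Of 9 interferon-responsive genes used, 3 were past 1.5-fold higher and 1 lower. H2-K1, which presents antigen, had 31 UMIs in each library (1.33, 0.56 to 2.09), and Ifitm3, which blocks virus entry, had 263 and 462 (0.51, 0.29 to 0.74). Ifitm1 had 121 and 55 UMIs (2.47), with 50 of the 121 in 1 cell. In neutrophil-marker cells Ifitm1 stood at 1854 and 307 CPM, above its 513 and 93 CPM in VSMCs, and Ifitm3 stood at 1495 and 803 CPM, against 1114 and 780 CPM. H2-K1 stood at 101 and 63.4 CPM in neutrophil-marker cells, a ratio of 0.67. Ribosomal protein genes were higher as a class. Of 82 used, 81 had a ratio above 0 and 17 were past 1.5-fold, with a median of 0.46, against 0.32 in pericyte-rule cells and 0.23 in all other kept cells. Their sum had a ratio of 0.69 (0.66 to 0.72) in VSMCs without the pericyte limits and 0.23 (0.20 to 0.25) in those with them. Nuclear-coded oxidative phosphorylation genes had a median of 0.29, with 3 of 78 past 1.5-fold higher and 0 lower. All 12 mitochondrially coded genes used were lower, with a median of −2.70, as they were in pericyte-rule cells (−2.20) and all other kept cells (−2.16).

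Of 11 cell cycle genes used, 1 was past 1.5-fold higher (H2az1, a histone variant, 455 and 651 UMIs, 0.81) and 1 lower. H2az1 stood at 0.00 (−0.24 to 0.25) in VSMCs with the pericyte limits and at 1.74 (1.48 to 2.00) in those without, at 0.47 without the same 13 and 41 cells, and at 0.52 after thinning. A Mki67 UMI, which marks cycling cells, was found in 5 of 78 Lipo-Clo VSMCs (6.41%, 2.11 to 14.3%) and 10 of 186 Lipo-PBS VSMCs (5.38%, 2.61 to 9.66%), so no difference was detectable at this depth. Of 18 vascular and craniofacial transcription factors used, 1 was past 1.5-fold higher and 2 lower, with a median of −0.24. Of 8 PDGF, angiopoietin and VEGF genes used, 1 was higher (Pdgfrb) and 1 lower (Pdgfra).

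Markers of other cells were measured in the same VSMCs. In all other kept cells, the macrophage receptor gene Csf1r stood at 19.5 CPM in the Lipo-Clo library and 21.7 CPM in the Lipo-PBS library, C1qa at 42.2 and 50.1 CPM, and Mrc1 at 13.0 and 37.1 CPM. The whole list of 12 macrophage markers summed to 1671 and 975 CPM in those cells, with a median log2 ratio of 1.17 over its 3 genes used. In VSMCs the list added up to 162 and 311 UMIs, and the 3 genes used (Fcer1g, Tyrobp and Lyz2) are also expressed by neutrophils. Within the VSMCs Csf1r had 0 and 4 UMIs, and the complement genes C1qa, C1qb and C1qc lay between 1 and 22 UMIs each per library. Erythroid markers took 41173 and 58602 CPM, led by Hbb-bs with 5751 and 21572 UMIs, and 4 Lipo-Clo and 32 Lipo-PBS VSMCs held over 1% of their UMIs on them. Neutrophil markers took 8601 and 9335 CPM, led by S100a9 with 1307 and 2250 UMIs, and 4 VSMCs of each library held over 1% on them. Enamel epithelium markers took 2157 and 879 CPM, led by Odam with 301 and 246 UMIs. Bone and odontoblast markers took 441 and 1204 CPM, led by Ibsp with 11 and 264 UMIs. Fibroblast and mesenchyme markers took 8190 and 14553 CPM, and 16 (20.5%) and 61 (32.8%) VSMCs held over 1% of their UMIs on them. Glia markers had 9 and 24 UMIs and lymphocyte markers 38 and 63. Endothelial markers had 63 and 178 UMIs, most of them of Esam (47 and 108), which mural cells also express, and the defining genes Pecam1 and Emcn were at 0 in Lipo-Clo. The part of such cells or of free RNA in the ratios was not tested.

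The 8 genes that were furthest higher in Lipo-Clo were Prtn3, Wfdc17, Stfa1, Cstdc5, Cxcl2, Ifitm1, Ambn and Amtn, and the 8 furthest lower were Camp, Ccl4, Lgals7, Ibsp, Ngp, Spp1, Nts and Krt5. Of the 1305 Camp UMIs in Lipo-PBS, 1282 lay in 1 cell, and of the 761 Ngp UMIs, 749 did. Of the 58 Wfdc17 UMIs in Lipo-Clo, 53 lay in 1 cell, as did 57 of the 65 Stfa1 UMIs and 87 of the 155 Cxcl2 UMIs. For the other genes, the cell with the most UMIs of the gene held 73.0% of the Ambn, 63.0% of the Cstdc5, 60.4% of the Prtn3, 57.8% of the Amtn and 41.3% of the Ifitm1 UMIs in Lipo-Clo, and 80.4% of the Ccl4, 62.0% of the Spp1, 44.8% of the Krt5, 39.7% of the Lgals7 and 19.3% of the Ibsp UMIs in Lipo-PBS. Nts (neurotensin, a peptide) had 15 UMIs in 3 Lipo-Clo cells and 256 UMIs in 23 Lipo-PBS cells, a log2 ratio of −2.77 (−3.62 to −2.02). In neutrophil-marker cells Nts stood at 8.39 and 14.6 CPM, against 63.6 and 432 CPM in VSMCs.

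When the 264 VSMCs were clustered on their own they fell into 6 groups, each with cells of both libraries. The groups are described by their leading genes and left unnamed, and their sizes are not compared between libraries. The first, of 109 cells, was led by Pln (phospholamban, which restrains the calcium pump), Pgam2 and Sorbs2, with 5.46% of UMIs on contractile genes. The second, of 49 cells, was led by Higd1b and Rgs5, with 1.90% on pericyte markers. The third, of 44 cells, was led by Wif1, Ptn and Omd, with 2.75% on fibroblast markers, against 0.237% in the first. The fourth, of 25 cells, was led by Ngp, Camp and S100a8, with 5.58% on neutrophil markers. Of its cells 8% held Ngp, 28% Camp and 32% S100a8, and 1 cell held 749 of its 789 Ngp UMIs and 1282 of its 1304 Camp UMIs. The fifth, of 24 cells, was led by Nts, Ccn3 and Sfrp2, with 3.98% on contractile, 0.780% on elastic fibre, 3.55% on interstitial matrix genes and 2.70% on fibroblast markers. The sixth, of 13 cells, was led by H2ac8, Ahsp and Ube2c, with 1.18% on cell cycle genes and 12.01% on erythroid markers.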

How the data were processed

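As deposited, each library is 1 matrix of raw UMI counts over 34285 genes for the cells that were called, and the authors did not normalize these counts. The file header names Cell Ranger 8.0.0, while the submitters' processing notes list Cell Ranger 3.1.0, Seurat 3.1.1 and GRCm39. Which of them made the counts is not settled here, and no coordinates were given to the counted genes (the promoter table is of GRCm38.p6). Columns of other samples numbered 0.

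VSMCs and gene lists were chosen with earlier results of these data known. Named genes are the 3 rule genes, list members (the most abundant and most changed first), and the 8 genes in each direction whose interval bound nearest to equal levels lies farthest from it, without mitochondrial, haemoglobin and rule genes. UMIs were summed per library and divided by all UMIs of the cells (CPM). Ratios carry exact intervals for 2 Poisson counts and shares exact Clopper-Pearson intervals (scipy 1.17.1). Only the ratio and its interval were tested on simulated data, with Poisson counts that held no variation between cells. The cell rule, the shares, the thinning, the split and the clusters were not tested in this way.

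Scrublet (scanpy 1.11.5) called 0 and 1 cells at its automatic threshold, so it did not work here. Doublets were kept, and the 632 and 633 highest scores, with 9 and 18 VSMCs, were left out only as an alternative. TMM factors came from edgeR 4.0.16 and size factors from DESeq2 1.42.0 (R 4.3.3), with no model fitted. Other alternatives changed the limits of the VSMC rule, the cell filter, the denominator, the scaling, the depth per cell, the minimum UMIs and the fold limit.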

Additional observations from a re-analysis of the deposited data

Results flagged for a closer look

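No outlier search was possible, since each treatment is 1 library. Of the 2701 genes used, 20 had ratios in opposite directions in VSMCs and in pericyte-rule cells with both intervals clear of 0, and 9 of these are named here. The difference itself was not tested. The log2 ratios of Lipo-Clo over Lipo-PBS were −3.26 in VSMCs and 1.49 in pericyte-rule cells for Ibsp, −4.59 and 0.76 for Lgals7, and −3.53 and 0.88 for Krt5. In VSMCs Ibsp stood at 46.6 and 446 CPM, below its 667 and 1339 CPM in neutrophil-marker cells, which should lack it. With Col1a1 at most 1% of UMIs, the Ibsp ratio in VSMCs was 0.10. Lgals7 stood at 8.47 and 204 CPM against 34.7 and 219 CPM, and Krt5 at 12.7 and 147 CPM against 67.9 and 138 CPM. A single Lipo-PBS VSMC held 39.7% of the Lgals7 and 44.8% of the Krt5 UMIs. They were −3.56 and 1.80 for Camp, −2.78 and 2.83 for Ngp, 2.58 and −2.24 for Cxcl2, and 3.89 and −2.68 for Stfa1, and a single VSMC held most of the UMIs of these 4 genes in the library with the higher level. Rhob, a small GTPase induced by stress, stood at −0.90 in VSMCs and 0.25 in pericyte-rule cells, and Crip1, a small LIM protein abundant in smooth muscle, at 0.33 and −0.17.

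Ratios also stood in opposite directions, with both intervals clear of 0, in VSMCs without and with the pericyte limits, again untested. Eln stood at −0.92 without and 0.69 with the limits, and Mgp at −2.08 and 0.51, its level without the limits lying below that of neutrophil-marker cells in both libraries. Camp stood at −4.83 and 2.34, and Ngp at −6.64 and 3.39. The same held for Rgs5, which took part in the limits (−0.49 and 0.40), and for the rule genes Acta2 (−0.23 and 0.39) and Tagln (−0.29 and 0.53). Erythroid markers also differed between these cells, with 143 UMIs in Lipo-Clo and 19002 in Lipo-PBS without the limits (−5.13), and 9575 and 15713 with them (0.09). Summed neutrophil markers stood at −0.64 without and 3.09 with the limits, and summed immediate early and dissociation stress genes at 0.14 and −0.30. Fibroblast and mesenchyme markers were lower in both kinds, at −1.35 without and −0.62 with the limits. Ribosomal protein genes were higher in both, at 0.69 and 0.23.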

How the results depend on the processing

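No paired analysis was possible because the series holds a single library for each treatment. The VSMC share kept its direction under all 13 alternatives, with log2 ratios from −1.60 (kept cells without blood cells as denominator) to −1.05 (rule by share of UMIs). The number of genes past the limit depended on its construction. Higher and lower genes numbered 712 and 1324 of 5753 with at least 20 UMIs, and 57 and 58 of 616 with at least 200 UMIs. At 2-fold they numbered 50 and 165 of 2701, and with cells thinned to 1000 UMIs 91 and 94 of 832. Without mixed cells they numbered 172 and 285 of 1893, and without doublet calls 230 and 264 of 2211. Mixed cells held over 1% of UMIs on a blood, macrophage, glia, skeletal muscle, enamel or bone list, not the fibroblast list, and were chosen after seeing the data. Medians of pericyte markers stayed between 0.41 and 0.97, of elastic fibre genes between −0.68 and −0.40, and of interstitial matrix genes between −1.04 and −0.30. Thinning moved the median of all genes to 0.12, and at least 200 UMIs to 0.21.

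Among lists and genes past 1.5-fold, directions turned for the median of macrophage markers (−0.34, rule by share of UMIs) and of enamel markers (−2.35, without doublet calls). Without mixed cells they turned for Ccl2 (1.05), Cxcl2 (−1.02), Camp (2.57), Ngp (0.93) and Stfa1 (−1.55). With the rule by share of UMIs they turned for Camp (2.36) and Ngp (2.93). Thinning turned Npnt (0.085) and Ccl2 (0.021), and under 2 endothelial UMIs turned Ccl2 (0.33). At least 4 Myh11 UMIs turned Mgp (−0.20) and Lcn2 (−0.16), leaving out doublet calls turned Lcn2 (−0.13), and Col1a1 at most 1% turned Ibsp (0.10). Of the 17 list medians and 34 named genes within 1.5-fold, 11 and 19 changed sign under at least 1 alternative, with neutrophil markers between −1.53 and 2.79, cell cycle genes down to −0.20, interferon-responsive genes down to −0.09, Fbn1 between −1.25 and 0.82, and Jag1 down to −0.03. The cause was not tested.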
